A study of Homo sapiens with 6 samples.

Results

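The group described here is the small nucleolar RNAs (snoRNAs) and small Cajal body RNAs of MHCC97H cells, a human hepatocellular carcinoma line, with and without knockout of DDX17. Its members were chosen by name and by level: rows of the gene table whose name starts with SNORD, SNORA or SCARNA and a number, and whose mean over the 6 libraries was at least 1 FPKM (fragments per kilobase of transcript and 1e6 mapped fragments). Such names stood on 851 rows, and 275 of them passed, of 58302 rows in all. The members were 161 box C/D snoRNAs (SNORD), 91 H/ACA snoRNAs (SNORA) and 23 small Cajal body RNAs (SCARNA). Of the other rows, 426 were at 0 in all 6 libraries and 150 lay above 0 and below 1 FPKM. The level was thus used to choose the members and is given as a description; 222 members had a mean of at least 1 FPKM in both groups, 45 passed with the mean of the DDX17_KO libraries alone at that level and 8 with that of the control libraries alone.

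The DDX17_KO group held 3 libraries of a line in which DDX17, a DEAD-box RNA helicase gene, had been targeted by CRISPR/Cas9, and the control group held 3 libraries of a line made with a non-target construct. Both lines carried the CRISPR/Cas9 system and grew in DMEM with fetal bovine serum. Whether a line was 1 clone, whether its 3 libraries came from separate cultures, and how RNA was selected by size or type before sequencing is stated in none of the sources used here, so p-values measure the spread between these libraries, which may be technical. DDX17 itself was at 22.4, 7.64 and 19.1 FPKM in DDX17_KO libraries 1, 2 and 3, against 45.7, 41.4 and 43.9 FPKM in control libraries 1, 2 and 3. All 3 knockout libraries lay below all 3 control libraries, at a log2 fold change of -1.48 (SE 0.36, limma adjusted p = 0.282); without DDX17_KO replicate 2, the lowest, it was -1.04 and passed (limma adjusted p = 0.0334). Of 9 hepatocyte markers none reached a mean of 1 FPKM; their sum was 0 to 0.0372 FPKM in DDX17_KO and 0.877 to 1.02 FPKM in control libraries. Red cell markers summed to 0 to 0.652 FPKM in DDX17_KO and 54.0 to 69.6 FPKM in control libraries. Fibroblast markers summed to 46.4 to 88.1 FPKM in DDX17_KO and 36.8 to 44.5 FPKM in control libraries, leukocyte markers to 2.07 to 3.3 FPKM in DDX17_KO and 1.27 to 1.64 FPKM in control libraries, and endothelial markers to 0.225 to 0.498 FPKM in DDX17_KO and 0.562 to 0.752 FPKM in control libraries, each without overlap. The part of these differences in any result below was not tested.

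snoRNAs are short non-coding RNAs of the nucleolus, most of them cut from introns of a host gene after splicing. Box C/D snoRNAs pair with ribosomal RNA and guide methylation of its riboses by fibrillarin, and H/ACA snoRNAs guide the change of uridine to pseudouridine by dyskerin. Small Cajal body RNAs hold one or both kinds of box and guide the same changes in the RNAs of the spliceosome. A few members, among them U3 (SNORD3A), U14 (the SNORD14 genes) and U17 (SNORA73A and SNORA73B), serve the cutting of the ribosomal RNA precursor. DEAD-box helicases are known to remodel structured RNA, and the comparison of the lines asks which of these RNAs differed in level with DDX17 knocked out.

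The boxes can be read in the members themselves. The 3 SNORD58 genes lie in the same host gene, RPL17, and are shown because their levels stood far apart; SNORD58A and SNORD58C were added after their values were seen. The capitals mark box C (TGATGA within the first 25 bases) and box D (CTGA within the last 20 bases), in sequences of GENCODE release 29 on hg38. The loci are chr18:49491283-49491347 for SNORD58A, chr18:49491664-49491729 for SNORD58B and chr18:49489245-49489308 for SNORD58C, all on the minus strand.
SNORD58A: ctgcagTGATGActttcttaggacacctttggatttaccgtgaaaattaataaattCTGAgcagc
SNORD58B: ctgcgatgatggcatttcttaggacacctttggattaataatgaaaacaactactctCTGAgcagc
SNORD58C: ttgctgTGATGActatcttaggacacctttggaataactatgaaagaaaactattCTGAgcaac

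The 5 SNORD14 genes (U14) are shown because copies of the same RNA from 2 hosts can be compared in them. SNORD14A (chr11:17074654-17074744) and SNORD14B (chr11:17075779-17075868) lie in RPS13, and SNORD14C (chr11:123059335-123059422), SNORD14D (chr11:123058909-123058995) and SNORD14E (chr11:123058077-123058161) in HSPA8, all on the minus strand. Capitals are as above.
SNORD14A: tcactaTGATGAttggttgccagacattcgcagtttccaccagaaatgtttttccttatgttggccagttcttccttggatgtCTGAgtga
SNORD14B: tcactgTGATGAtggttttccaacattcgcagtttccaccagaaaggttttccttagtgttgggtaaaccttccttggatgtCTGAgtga
SNORD14C: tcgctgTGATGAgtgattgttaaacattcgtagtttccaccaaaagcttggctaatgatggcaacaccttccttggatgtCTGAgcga
SNORD14D: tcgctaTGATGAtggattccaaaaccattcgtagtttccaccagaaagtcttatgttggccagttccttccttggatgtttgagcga
SNORD14E: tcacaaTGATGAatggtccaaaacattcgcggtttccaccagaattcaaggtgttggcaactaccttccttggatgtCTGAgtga

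For the H/ACA class the near-identical pair SNORA73A (chr1:28507366-28507571) and SNORA73B (chr1:28508559-28508762), both on the plus strand in SNHG3, is shown with SNORA71C (chr20:38429670-38429803, minus strand, in SNHG17), the member with 10 fragments or more that had the lowest unadjusted p. Capitals mark box H (ANANNA), taken as the match nearest the centre within the middle part of the RNA. Where present, ACA placed 3 bases from the end is marked too.
SNORA73A: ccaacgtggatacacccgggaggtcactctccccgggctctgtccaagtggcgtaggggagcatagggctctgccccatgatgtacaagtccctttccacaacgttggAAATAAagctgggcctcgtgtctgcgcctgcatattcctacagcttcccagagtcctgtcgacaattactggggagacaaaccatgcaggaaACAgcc
SNORA73B: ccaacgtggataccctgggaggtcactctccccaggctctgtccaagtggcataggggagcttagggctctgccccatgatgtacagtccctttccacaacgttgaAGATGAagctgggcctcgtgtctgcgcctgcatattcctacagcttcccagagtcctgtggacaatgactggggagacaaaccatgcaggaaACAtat
SNORA71C: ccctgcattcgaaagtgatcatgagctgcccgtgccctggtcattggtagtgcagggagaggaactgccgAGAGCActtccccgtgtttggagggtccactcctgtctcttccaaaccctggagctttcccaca

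Among the 156 SNORD members with 1 annotated transcript, 69.9% held TGATGA in that first window and 97.4% held CTGA in the last, against 57.7% and 82.2% of the 213 SNORD rows below 1 FPKM. Of 90 such SNORA members, 63 had ACA exactly 3 bases from the end and 94.4% held ANANNA within the middle window, against 197 and 88.1% of 329 SNORA rows below the level. None of the 90 SNORA members held TGATGA in the first window, and 5 of 23 SCARNA members did. SNORD58B lacks the exact letters TGATGA in its first window, which says only that this spelling is not there. Within the SNORD58 trio the identity between any pair was 78.5% to 78.8%, and among the SNORD14 genes it ran from 75% to 85.7%. SNORA73A and SNORA73B agree at 93.2% of positions, so fragments of one can be assigned to the other. Names are also shared: 85 members carry a name that stands on more than 1 row, as SNORA18 does on 8 rows, and such rows are identified below by their gene ID.

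Most member values rest on very few fragments. FPKM times length and depth came out as whole fragments for all 1408 low values of members with 1 annotated transcript, which gives the count behind each value. Depths were 10.625, 5.351 and 8.209 (in units of 1e6 fragments) in DDX17_KO libraries 1, 2 and 3, and 12.336, 13.906 and 14.554 in control libraries 1, 2 and 3. A single fragment of an RNA of 75 bases was therefore worth 1.255, 2.492 and 1.624 FPKM in the DDX17_KO libraries, against 1.081, 0.959 and 0.916 FPKM in the control libraries. The median member had 3.33 fragments per library, 132 members averaged under 3 and 64 averaged 10 or more. These 64 were 23 SNORD, 30 SNORA and 11 SCARNA members. Counting error alone is wide at such depths, and a count of 0 allows up to 3 fragments, or 7.475 FPKM at 75 bases in DDX17_KO replicate 2.

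A value of exactly 1 fragment was the most frequent of the single counts. It made up 544 of the 1614 values (33.7%), while 33 values were at 0 fragments, 178 at 2 and 139 at 3. Its share was 34.6%, 43.5% and 36.8% in DDX17_KO libraries 1, 2 and 3, against 31.6%, 27.9% and 27.9% in control libraries 1, 2 and 3. In 47 members, 46 SNORD and 1 SCARNA, all 6 libraries held exactly 1 fragment. Their lengths ran from 64 to 95 bases. They included SNORD25 and SNORD28 in SNHG1, SNORD57, SNORD86 and SNORD110 in NOP56, SNORD107 and SNORD109A in SNHG14, and SNORD58C in RPL17. Of these 47 members, 44 (93.6%) overlapped an exon of some transcript of their host, against 70 of the 228 other members (30.7%) and 41 of the 115 other SNORD members (35.7%). Outside the family the same held for 258 rows of the table, of which 168 were microRNAs.

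**Figure D1:**
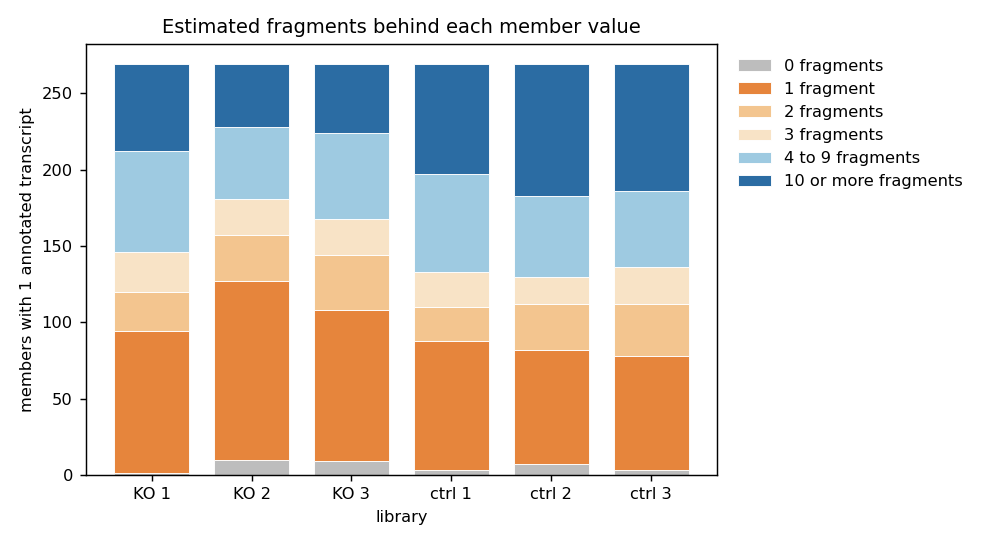
Number of members (y axis, of 269 with 1 annotated transcript) by the estimated fragments behind their value in each library (x axis, KO for DDX17_KO, ctrl for control), stacked by colour from 0 fragments to 10 or more. The orange band of values at exactly 1 fragment is widest in DDX17_KO replicate 2, at 43.5% of its values.

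For an RNA with 1 fragment in each library, FPKM is set by depth and length alone. At 72 bases it came to 1.31, 2.60 and 1.69 FPKM in DDX17_KO libraries 1, 2 and 3, against 1.13, 0.999 and 0.954 FPKM in control libraries 1, 2 and 3. The groups then do not overlap, the ratio of means is 1.82 and the log2 fold change is 0.48, although the fragments are the same in number. All 47 members lay higher in DDX17_KO in this way, at log2 fold changes between 0.42 and 0.50, and 26 of them had an unadjusted limma p under 0.05. No fold is read from them below.

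No member passed the test. Of 15620 genes in the fit, limma at an adjusted p under 0.05 called 0% higher and 0.0384% lower in DDX17_KO, and of the 275 members it called 0 higher and 0 lower. The lowest limma adjusted p of a member was 0.0747, held by SNORD36C. That row had 1 fragment in each DDX17_KO library and 0 in each control library, and was a member only through its DDX17_KO mean. At an unadjusted p under 0.05, 45 members (16.4%) were higher and 9 (3.27%) lower in DDX17_KO, where 6.31% and 7.19% of all genes tested were. With approximate fragments in place of FPKM, voom with limma also called 0 members. Groups that did not overlap were found in 66 members (24.0%) on the higher side and 8 (2.91%) on the lower side, against 8.09% and 12.6% of all genes tested. The 8 lower ones became 15, 39 and 13 without DDX17_KO replicate 1, 2 or 3, 19, 12 and 26 without control replicate 1, 2 or 3, and 46 without both libraries numbered 2. With fewer libraries the groups of any gene separate more easily. The share over all genes tested in these settings is not given here, so no result about the members is read from the rise. The 47 members at 1 fragment made up most of the 66: without them 19 of 228 (8.33%) lay higher and 8 (3.51%) lower. The choice of members favoured the higher side in all these counts. As given above, 45 members reached 1 FPKM only through the DDX17_KO mean and 8 only through the control mean. Among the 64 members with 10 fragments or more, 0 lay higher and 2 lower, SNORA71C and SNORA2B.

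The medians moved in the same manner. The median log2 fold change was 0.25 over all SNORD members, 0.02 over SNORA and 0.15 over SCARNA members, beside -0.03 over all genes tested. Here too the choice of members favoured the higher side. Of the SNORD members, 33 reached 1 FPKM only through the DDX17_KO mean and 3 only through the control mean. Without the rows at 1 fragment in every library the SNORD median was 0.02. With 10 fragments or more it was -0.06 for SNORD, 0.00 for SNORA and 0.17 for SCARNA members. Other short RNAs of the table showed a like pattern at the same level: 567 rows of microRNAs, spliceosomal, Y and vault RNAs had a median of 0.39, and the 402 of them that were not at 1 fragment in all libraries had a median of 0.13.

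**Figure D2:**
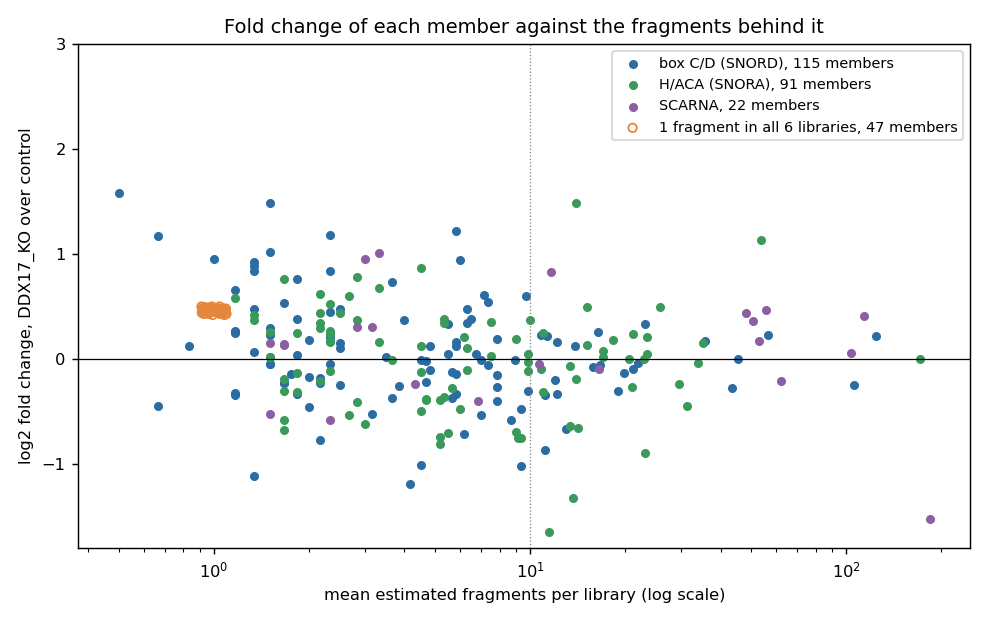
Log2 fold change of each of the 275 members, DDX17_KO over control (y axis), against the mean number of estimated fragments per library (x axis, log scale), coloured by class. The 47 members at 1 fragment in all 6 libraries (open orange circles, spread sideways for display) lie between 0.42 and 0.50, while the 64 members right of the dotted line at 10 fragments had a median of 0.00 overall.

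Summed levels by class overlapped between the groups. The SNORD members summed to 966.7, 1195.6 and 862.5 FPKM in DDX17_KO libraries 1, 2 and 3, against 980.9, 983.2 and 936.3 FPKM in control libraries 1, 2 and 3, a ratio of means of 1.043. The SNORA members summed to 618.2, 777.9 and 526.2 FPKM in DDX17_KO, against 666.6, 664.7 and 606.7 FPKM in control libraries, a ratio of 0.992. The SCARNA members summed to 280.0, 425.5 and 189.5 FPKM in DDX17_KO, against 201.1, 301.4 and 252.5 FPKM in control libraries, a ratio of 1.185. In each class DDX17_KO replicate 2 had the highest sum of the 6 libraries and DDX17_KO replicate 3 the lowest. The same held for the sum over all rows of the gene table, so these places are not particular to the members. That sum was 264252.7, 369194.9 and 262774.1 FPKM in DDX17_KO, against 283122.1, 318446.6 and 306732.7 FPKM in control libraries. Without DDX17_KO replicate 2 the ratios were 0.946 for SNORD, 0.886 for SNORA and 0.933 for SCARNA members. The SCARNA sum of DDX17_KO replicate 3 counts SCARNA2 at 0. The overlapping row AL356488.2, which is no member, held 37.7 FPKM in that library. The lowest place of that library and the ratio below 1 therefore depend on that row for SCARNA members, and neither is read as a result. The highest single members were SNORD58B with 14.6% of the SNORD total, SNORA73B with 12.6% of the SNORA total and SCARNA17 with 24.1% of the SCARNA total. The 10 highest members of each class held 38.7% of the SNORD, 42.6% of the SNORA and 91.3% of the SCARNA total.

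**Figure D3:**
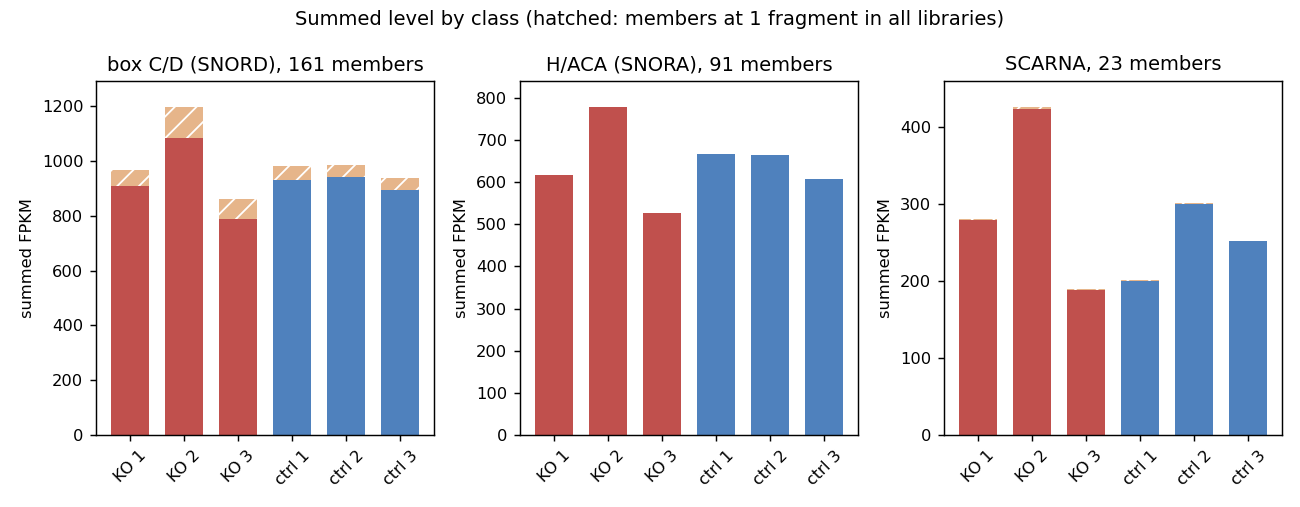
Summed FPKM (y axis) of the box C/D, H/ACA and SCARNA members in each library (x axis, red for DDX17_KO, blue for control), with the share of members at 1 fragment in all libraries hatched on top. DDX17_KO replicate 2 is the highest bar in each panel, at 1195.6, 777.9 and 425.5 FPKM, and DDX17_KO replicate 3 the lowest. In the SCARNA panel SCARNA2 is counted at 0 in DDX17_KO replicate 3.

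DDX17_KO replicate 2, the shallowest library, stood apart among the members, as it did in the sum over all rows given above. Over the 64 members with 10 fragments or more, its median log2 difference from the mean of the other knockout libraries was 0.54, with 50 of 64 above 0. The difference was 0.91 in the 18 members of 150 bases or longer, 17 of them above 0, and 0.21 in the 46 shorter ones. Over the 64 members, Spearman's rho of its difference was 0.38 with length and 0.35 with GC content. A split by length was not particular to it. Longer and shorter members lay at 0.37 (15 above 0) and 0.17 in control replicate 2, and at -0.66 (2 above 0) and -0.39 in DDX17_KO replicate 3. Over all 64 members DDX17_KO replicate 3 lay at -0.44, and the control libraries lay at -0.04, 0.26 and -0.08 from the others of their group. What sets DDX17_KO replicate 2 apart was not tested.

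The most abundant box C/D members did not pass the test. SNORD58B, a guide of methylation in the large-subunit ribosomal RNA, had 151, 139 and 107 FPKM in DDX17_KO libraries 1, 2 and 3, against 149, 160 and 159 FPKM in control libraries 1, 2 and 3. DDX17_KO replicate 1 lay within the control range and the other knockout libraries below it, so the groups overlapped, with a log2 fold change of -0.25 (SE 0.20, limma adjusted p = 0.528). SNORD58A, in the same host, had 8.69, 11.5 and 9.37 FPKM in DDX17_KO, against 7.48, 11.1 and 11.6 FPKM in control libraries. SNORD58C had 1 fragment in each library, so that within the trio printed above SNORD58B was the highest by far in both groups. The host RPL17 had 13, 31.9 and 13.9 FPKM in DDX17_KO, against 32.3, 17.4 and 19.8 FPKM in control libraries, and the order of its libraries was another than that of SNORD58B.

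SNORD17, a long box C/D RNA in an intron of SNX5, had 45.3, 85.9 and 38.6 FPKM in DDX17_KO libraries 1, 2 and 3, against 44.8, 39.4 and 53.9 FPKM in control libraries. DDX17_KO replicate 2 lay above and DDX17_KO replicate 3 just below the control range, and the log2 fold change of 0.22 (SE 0.31, limma adjusted p = 0.731) became -0.13 without it. SNORD22 (ENSG00000278527; U22, known in Xenopus to be needed for the small-subunit ribosomal RNA) had 33.9, 28.4 and 21.4 FPKM in DDX17_KO, against 41.5, 24.2 and 37.9 FPKM in control libraries. SNORD26 had 35.1, 37.4 and 26 FPKM in DDX17_KO, against 33.5, 21.1 and 23.8 FPKM in control libraries. SNORD22 and SNORD26 share the host SNHG1, a non-coding gene whose introns hold several box C/D RNAs, and in both the groups overlapped, at log2 fold changes of -0.28 and 0.33 (limma adjusted p = 0.594 and 0.504). The 7 members in SNHG1 summed to 127.7, 91.1 and 121.6 FPKM in DDX17_KO, against 120.0, 81 and 119.4 FPKM in control libraries. The library numbered 2 was the lowest of its group on both sides. In DDX17_KO this place depends on SNORD27 (ENSG00000275996) alone, which had 40.5, 2.6 and 33.8 FPKM in DDX17_KO libraries 1, 2 and 3. In control libraries it does not depend on that row. No shared effect of the libraries numbered 2 on these members is read from the sums.

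**Figure D4:**
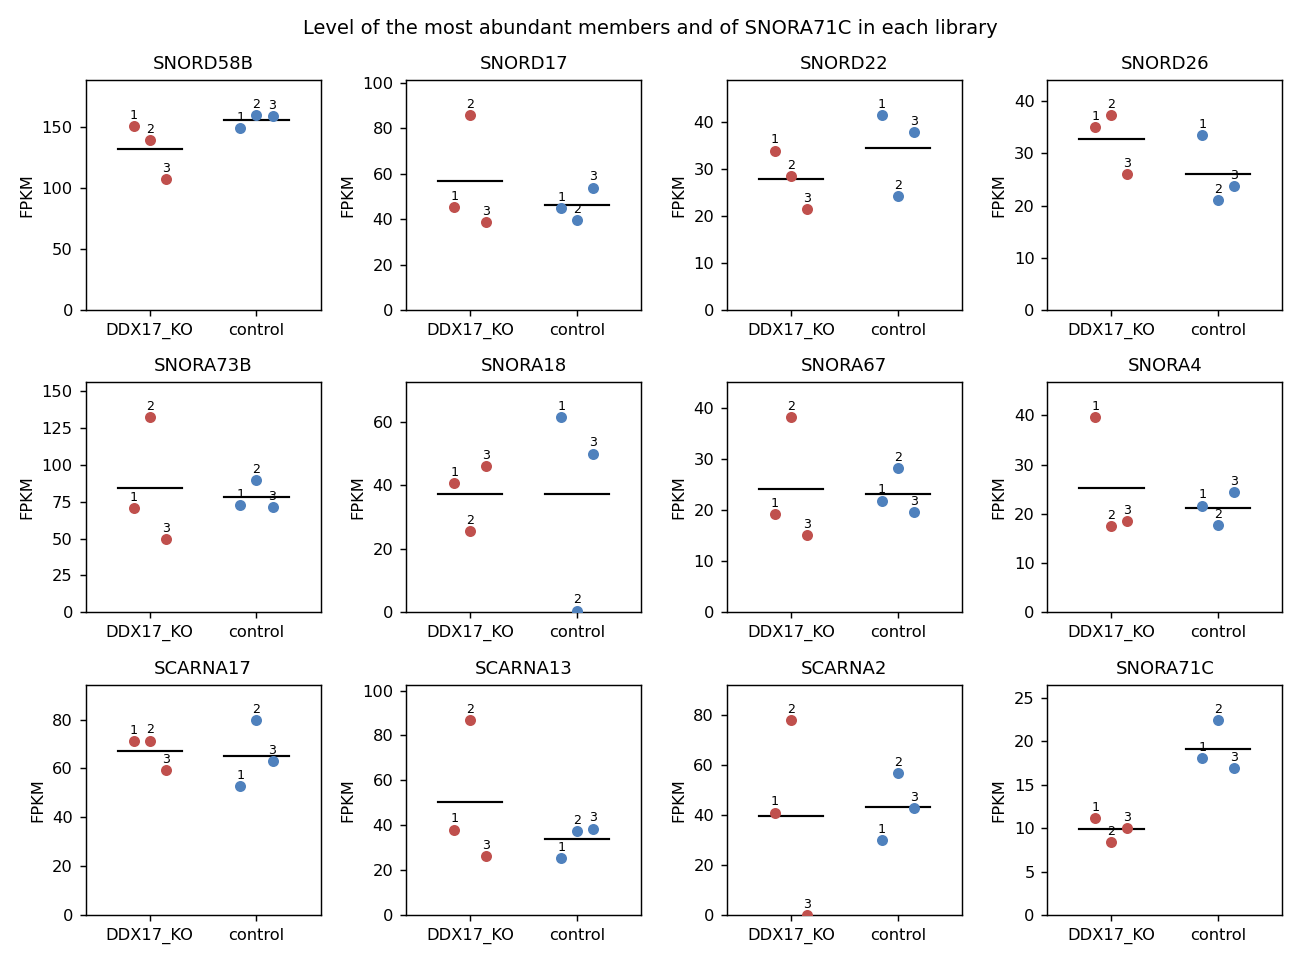
FPKM (y axis) of the 4 most abundant SNORD, the 4 most abundant SNORA and the 3 most abundant SCARNA members and of SNORA71C, in DDX17_KO libraries (red, left) and control libraries (blue, right), with replicate numbers and a black bar at the mean. SNORA71C is the one panel in which all DDX17_KO values, up to 11.2 FPKM, lie below all control values, from 16.9 FPKM.

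The members that serve the cutting of ribosomal RNA precursors were also measured. SNORD3A (U3) had 10.5, 33.8 and 9.35 FPKM in DDX17_KO libraries 1, 2 and 3, against 11.5, 15.2 and 11.8 FPKM in control libraries. DDX17_KO replicate 2 was again above all others, the other knockout libraries lay below all 3 controls, and the log2 fold change of 0.23 (SE 0.44, limma adjusted p = 0.803) became -0.33 without that library. Over the 4 U3 members, which are near copies, the sum was 33.0, 81 and 33.3 FPKM in DDX17_KO, against 33.5, 46.5 and 42.2 FPKM in control libraries, a ratio of means of 1.21 that became 0.81 without DDX17_KO replicate 2. SNORD13 (U13, a guide of acetylation in the small-subunit ribosomal RNA) rested on 2, 2 and 1 fragments in DDX17_KO and 1, 3 and 2 in control libraries. SNORD118 (U8, needed for the large-subunit ribosomal RNAs) had 1 fragment in every library and, at 134 bases, fell below the level of 1 FPKM, so it was no member.

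Among the SNORD14 genes (U14, needed in yeast for the small-subunit ribosomal RNA), the 5 copies summed to 16, 36.6 and 35.7 FPKM in DDX17_KO libraries 1, 2 and 3, against 49.8, 36.3 and 50.4 FPKM in control libraries, and the groups overlapped. In HSPA8 the groups did not overlap for SNORD14C and did for the other two copies. SNORD14C had 1, 2 and 1 fragments in DDX17_KO libraries 1, 2 and 3, against 6, 9 and 6 in control libraries, or 1.07, 4.25 and 1.38 FPKM against 5.53, 7.35 and 4.69 FPKM. Its log2 fold change was -1.19 (SE 0.36, limma adjusted p = 0.334, two-sided exact permutation p = 0.1, the smallest that 20 arrangements allow). Without DDX17_KO replicate 2 it was -1.61 and passed (limma adjusted p = 0.0282). SNORD14D had 1, 1 and 2 fragments in DDX17_KO, against 10, 12 and 1 in control libraries, so that control replicate 3 lay with the knockout libraries. SNORD14E had 5, 10 and 6 fragments in DDX17_KO, against 16, 15 and 15 in control libraries, but per depth DDX17_KO replicate 2 was the highest of all, at 22 FPKM against 12.1 to 15.3 FPKM in control libraries. The host HSPA8, a heat shock protein gene, had 90.2, 138 and 118 FPKM in DDX17_KO, against 109, 92.5 and 108 FPKM in control libraries (log2 fold change 0.14, limma adjusted p = 0.742). In RPS13, SNORD14A had 7.24, 6.16 and 5.35 FPKM in DDX17_KO, against 7.13, 5.53 and 4.53 FPKM in control libraries, and SNORD14B 1.05, 2.08 and 17.6 FPKM in DDX17_KO, against 12.6, 0.799 and 28.2 FPKM in control libraries. The groups overlapped in both, at log2 fold changes of 0.12 and -0.87.

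The SNORD116 genes, copies from an imprinted cluster in SNHG14 whose loss is known in Prader-Willi syndrome, gave 22 members, of which 5 were at 1 fragment in all libraries. SNORD116-18 alone averaged 10 fragments or more, with 20, 11 and 14 in DDX17_KO and 23, 29 and 30 in control libraries. The 22 copies summed to 73.7, 92.2 and 64.2 FPKM in DDX17_KO, against 71.6, 72.8 and 70.2 FPKM in control libraries. Both groups spanned the same level, and DDX17_KO replicates 2 and 3 were the highest and the lowest library; the ratio of means was 1.07, and 0.96 without replicate 2.

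H/ACA members differed more from one another than between the groups. SNORA73B (U17), the most abundant, had 70.6, 132 and 49.6 FPKM in DDX17_KO libraries 1, 2 and 3, against 72.7, 89.5 and 71.1 FPKM in control libraries. Its log2 fold change was 0.00 (95% confidence interval -0.81 to 0.81), and -0.38 without DDX17_KO replicate 2. Its near copy SNORA73A, which overlaps an exon of the same host SNHG3, had 3, 4 and 3 fragments in DDX17_KO and 2, 2 and 3 in control libraries. SNORA73A did not overlap in FPKM between the groups, at 1.37, 3.63 and 1.77 FPKM in DDX17_KO against 0.787, 0.698 and 1.00 FPKM in control libraries (limma adjusted p = 0.355), while 3 fragments were found in libraries of both groups. SNORA67 (ENSG00000277985), in EIF4A1, had 19.2, 38.2 and 15.1 FPKM in DDX17_KO, against 21.9, 28.3 and 19.6 FPKM in control libraries. SNORA4 (ENSG00000263776), in EIF4A2, had 39.6, 17.6 and 18.5 FPKM in DDX17_KO, against 21.7, 17.7 and 24.4 FPKM in control libraries. In SNORA67 DDX17_KO replicate 2 was the highest library and in SNORA4 it was DDX17_KO replicate 1, and in both the other knockout libraries lay below the control mean (limma adjusted p = 0.96 and 0.823). Without DDX17_KO replicate 2 the log2 fold change of SNORA67 was -0.41.

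SNORA71C, an H/ACA RNA in an intron of SNHG17, was lower in all 3 DDX17_KO libraries. It was measured at 11.2, 8.37 and 10.0 FPKM in DDX17_KO libraries 1, 2 and 3 (16, 6 and 11 fragments), against 18.1, 22.5 and 16.9 FPKM in control libraries 1, 2 and 3 (30, 42 and 33 fragments). The means were 9.87 ± 1.44 FPKM in DDX17_KO and 19.2 ± 2.95 FPKM in control libraries (SD, n = 3 each). Its log2 fold change came to -0.89 (SE 0.20, 95% confidence interval -1.35 to -0.43), which did not pass over all genes (limma adjusted p = 0.257, two-sided exact permutation p = 0.1, the smallest possible). Over 19 alternatives its adjusted p ran from 0.0429, with both libraries numbered 2 left out, to 0.79. SNORA71A, in the same host and 82.8% identical, had 31, 16 and 13 fragments in DDX17_KO and 36, 44 and 37 in control libraries (log2 fold change -0.24). SNORA71D, 86.6% identical to SNORA71C, had 5, 5 and 3 fragments in DDX17_KO and 13, 19 and 9 in control libraries (log2 fold change -0.69). SNORA71B, with 12.0, 6.5 and 9.0 estimated fragments in DDX17_KO and 13, 15.5 and 10.0 in control libraries, lay at 0.25. The 4 members summed to 42.1, 43.6 and 29.9 FPKM in DDX17_KO, against 53.0, 61.8 and 43.9 FPKM in control libraries, groups whose nearest values were 43.6 and 43.9 FPKM. The host SNHG17 had 8.36, 9.27 and 6.81 FPKM in DDX17_KO, against 9.29, 11.9 and 8.35 FPKM in control libraries (log2 fold change -0.24, limma adjusted p = 0.549).

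SNORA2B, an H/ACA RNA in an intron of KANSL2, was the other member of 10 fragments or more whose groups did not overlap. It was measured at 8.24, 6.82 and 4.45 FPKM in DDX17_KO (12, 5 and 5 fragments), against 11.8, 10.5 and 9.03 FPKM in control libraries (20, 20 and 18 fragments). The log2 fold change was -0.64 (SE 0.24, limma adjusted p = 0.369, two-sided exact permutation p = 0.1). KANSL2 itself, a subunit of a histone acetyltransferase complex, lay at 3.60, 4.94 and 3.64 FPKM in DDX17_KO and 3.79, 3.86 and 3.37 FPKM in control libraries, so that member and host did not share an order of libraries.

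The 23 small Cajal body RNAs had a median length of 143 bases and a median of 6.83 fragments. These medians were 134 bases and 5.33 fragments for SNORA, and 83 bases and 2.0 fragments for SNORD members. Of the 23, 11 averaged 10 fragments or more and 7 under 3. SCARNA17 (ENSG00000251992), in SNHG22, had 71.2, 71.4 and 59.2 FPKM in DDX17_KO libraries 1, 2 and 3, against 52.9, 79.9 and 63.0 FPKM in control libraries. All 3 knockout values fell within the control range, at a log2 fold change of 0.06 (SE 0.21, limma adjusted p = 0.898). SCARNA13 (U93), in an intron of SNHG10, had 38.0, 87.0 and 26.1 FPKM in DDX17_KO, against 25.4, 37.4 and 38.5 FPKM in control libraries. SCARNA10 (U85, which holds both kinds of box) had 22.2, 27.2 and 10.3 FPKM in DDX17_KO, against 11.1, 17.7 and 11.5 FPKM in control libraries. In SCARNA13 and SCARNA10 DDX17_KO replicate 2 was the highest library of all, and their log2 fold changes of 0.41 and 0.47 (limma adjusted p = 0.622 and 0.519) became -0.07 and 0.20 without it. SCARNA5 (U87), near the threshold, had 3, 2 and 3 fragments in DDX17_KO and 3, 4 and 2 in control libraries. SCARNA16 (ENSG00000275143) was the one member of 10 fragments or more with an unadjusted p under 0.05 on the higher side, with 14, 13 and 9 fragments in DDX17_KO and 7, 18 and 9 in control libraries (log2 fold change 0.83, limma adjusted p = 0.369, and 0.0426 without both libraries numbered 2).

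SCARNA2, a guide of methylation in U2 RNA, was listed at 0 in DDX17_KO replicate 3 and was high elsewhere. It was measured at 40.8, 77.9 and 0 FPKM in DDX17_KO libraries 1, 2 and 3, against 29.9, 56.7 and 42.5 FPKM in control libraries. The row AL356488.2, a long non-coding RNA of 427 bases that starts at the same base as SCARNA2 with its 420 bases, held 132 fragments in DDX17_KO replicate 3 and 1 fragment in each of the other 5 libraries. Added to one another, the 2 rows held 183, 176 and 132 fragments in DDX17_KO and 156, 332 and 261 in control libraries. Their summed level was 41.0, 78.3 and 37.7 FPKM in DDX17_KO, against 30.1, 56.8 and 42.7 FPKM in control libraries, with no library near 0. The log2 fold change of SCARNA2 alone was -1.52 (SE 1.44, limma adjusted p = 0.595), with -2.72 without DDX17_KO replicate 2 and 0.43 without DDX17_KO replicate 3. That of the sum was 0.24 (two-sided exact permutation p = 0.7); the sum was formed after the values had been seen.

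Such jumps between low and high counts were found in 10 members, which held at most 1 fragment in one library and 20 or more in another. All 10 overlapped an exon of their host. SNORA18 (ENSG00000207145), in TAF1D, had 57, 18 and 50 fragments in DDX17_KO, against 100, 1 and 96 in control libraries, and its log2 fold change of 1.13 turned to -0.60 without control replicate 2. SNORD27 (ENSG00000275996) in SNHG1 had 31, 1 and 20 fragments in DDX17_KO, against 24, 25 and 13 in control libraries. SNORA6 in RPSA had 1, 23 and 22 fragments in DDX17_KO, against 1, 36 and 1 in control libraries, and the value of 1 thus occurred in both groups. SNORD14B in RPS13 had 1, 1 and 13 fragments in DDX17_KO, against 14, 1 and 37 in control libraries. SNORA50C in SNHG25 had 1, 1 and 11 fragments in DDX17_KO, against 15, 23 and 18 in control libraries, with an unadjusted limma p of 0.0314 (adjusted p = 0.369). SCARNA2 was at 0 in 1 library, and the other 9 were at 1 fragment in 1 to 5 libraries each. Whether their fragments were counted to the overlapping host exon in those libraries was not tested, other than by the values of AL356488.2 above.

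**Figure D5:**
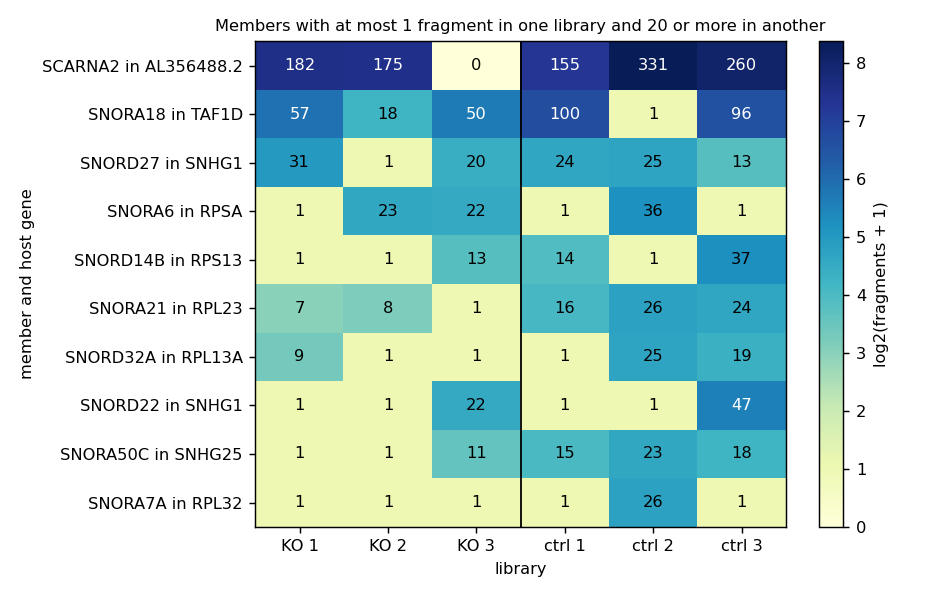
Estimated fragments (number in each cell, colour on a log2 scale) of the 10 members that held at most 1 fragment in one library and 20 or more in another, by library (columns, DDX17_KO left of the line, control right of it). Cells at 1 fragment occur in both groups, as for SNORA18 in control replicate 2 and SNORD27 in DDX17_KO replicate 2. SCARNA2 is at 0 in DDX17_KO replicate 3.

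Hosts were found for 265 members, on the same strand and containing them, in 150 genes. Of these members 196 lay in protein-coding hosts and 69 in others, and 10 members, SNORD3A among them, lay in none. The 148 hosts in the fit had a median log2 fold change of -0.04, with 68 above and 80 below 0, and limma called 0 of them at an adjusted p under 0.05. At an unadjusted p under 0.05, 3 (2.03%) were higher and 4 (2.7%) lower, where 6.31% and 7.19% of all genes tested were. Over 61 members of 10 fragments or more and their 48 hosts, the fold changes of member and host had the same sign in 28. Pearson's r was -0.21 and Spearman's rho 0.0 across these members, which share libraries and in part a host.

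The protein genes of the snoRNA particles did not pass the test. Of 40 genes in 6 lists, 39 were in the fit, limma called 0 at an adjusted p under 0.05, and 20 lay above and 19 below 0, with a median of 0.03. At an unadjusted p under 0.05, 2 of the 39 were higher and 1 lower, beside 6.31% and 7.19% of all genes tested. FBL, the methyltransferase fibrillarin of box C/D particles, had 34.6, 37.5 and 35.0 FPKM in DDX17_KO, against 50.1, 56.1 and 44.7 FPKM in control libraries. All 3 knockout libraries lay below the controls, at a log2 fold change of -0.48 (SE 0.18, limma adjusted p = 0.369). The other core box C/D genes, NOP56, NOP58 and SNU13, lay at 0.03, 0.48 and -0.32 with groups that overlapped. DKC1, the pseudouridine synthase dyskerin of H/ACA particles, had 11.8, 10.4 and 11.6 FPKM in DDX17_KO, against 11.5, 8.97 and 12.0 FPKM in control libraries. Its partners NHP2, NOP10 and GAR1 lay at log2 fold changes of -0.29, -0.48 and 0.08, and their groups overlapped too. NOP10 alone of the 8 core genes passed without DDX17_KO replicate 2, at -1.03 (limma adjusted p = 0.0361). DDX5, the closest relative of DDX17, had 27.7, 24.2 and 27.1 FPKM in DDX17_KO, against 17.6, 8.37 and 17.2 FPKM in control libraries, which did not overlap (log2 fold change 0.90, limma adjusted p = 0.351).

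Without DDX17_KO replicate 2 the fit called 8 members, 5 higher and 3 lower, where it called 1.95% of genes higher and 1.72% lower. None of the 8 averaged 10 fragments or more. The 5 higher ones were SNORD36C, SNORD94, SNORA51 (ENSG00000206878), SNORD61 and SNORD116-12, and the 3 lower ones SNORD14C, SNORD48 and SNORA72 (ENSG00000207067). Some of these directions were favoured by the choice of members: SNORD36C and SNORD116-12 reached 1 FPKM only through the mean of the DDX17_KO libraries, at 2.03 and 2.24 FPKM in DDX17_KO against 0 and 0.803 FPKM in control libraries, and SNORD48 only through that of the control libraries. SNORD36C, in RPL7A, had 1 fragment in each DDX17_KO library and 0 in each control library, and SNORD61 had 2, 1 and 2 fragments in DDX17_KO and 1 in each control library. At the threshold of 1 FPKM, the members just inside were SNORD97, SNORA20 (ENSG00000207392) and SNORD36C, with means between 1.009 and 1.017 FPKM, and the rows just outside were SNORA77 (ENSG00000221083), SNORA70F and SNORA58 (ENSG00000249020), with means of 0.968, 0.99 and 0.996 FPKM.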

How the data were processed

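Total RNA of 3 DDX17_KO and 3 control libraries was sequenced, per the labels. The authors deposited 1 table of FPKM values, 1 row for each gene. Per the submitters' processing notes, HISAT2, StringTie, edgeR and CASAVA 1.8 were used with hg38, in roles not stated. The sources used here give no annotation release, strand setting or filter, so overlapping rows, antisense rows and near copies could share fragments. Groups and replicate numbers came from the labels. The members and lists were chosen with earlier results of these data known.

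Transcript lengths, loci, strands, hosts and sequences came from GENCODE release 29 (57980 of 58302 IDs matched, 56610 at the same locus). A host is the gene with the highest mean FPKM, other than a short RNA, that contains the member on the same strand. Within a library, FPKM times length came in whole multiples of 1 step; for genes with 1 transcript, 99.55% to 99.73% of values up to 20 fragments lay within 0.05 of a whole number, which gave depths and fragments. Counts so obtained are estimates, intervals and floors cover counting error only, and the floor is 3 fragments per library.

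Tests used limma 3.58.1 in R 4.3.3 with an intensity trend on log2(FPKM + 1), on the 15620 genes averaging at least 0.5 FPKM, two-sided, with Benjamini-Hochberg adjustment over all of them and a threshold of 0.05. Fold changes of low rows come out too small on this scale. Genes described one at a time were also compared by an exact permutation test over 20 arrangements, which cannot go below 0.1. The fit was tested on simulated data. Tables were handled with Python 3.11.15, pandas 2.3.3 and scipy 1.17.1.

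The text names members past the threshold, the 4 SNORD, 4 SNORA and 3 SCARNA of highest level, members of at least 10 fragments whose groups did not overlap, U3, U8, U13, U14, U17 and 3 small Cajal body RNAs, DDX17 and DDX5, core particle genes, hosts, and rows nearest the threshold; members named beside these were chosen after their values were seen. Deviations of same-numbered libraries from their group means correlated at 0.3, 0.546 and 0.214 over 15620 genes for replicates 1, 2 and 3, all over 0.1, and unlike-numbered pairs at -0.425 to 0.329, with DDX17_KO 3 and control 1 the highest of these, so the correlation is not particular to a shared number; a fit with the number as a block was run, and the labels do not say what a number marks. Alternatives were that block, other pseudocounts, filters and scalings, limma without the trend, voom on approximate fragments, a correction for GC content with and without the block (a content was known for 99.64% of genes), libraries left out, and, added after seeing the data, the rows at 1 fragment in all libraries left out.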

Additional observations from a re-analysis of the deposited data

How the results depend on the processing

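With a replicate block the fit called 0 members, and 4 genes in the whole table, against 6 without it, and no call of a member changed. Genes called were 3 without a filter, 1376 without both libraries numbered 2, and 3 to 572 with 1 library left out. Members called were 14 without both libraries numbered 2 and 0 to 8 with 1 library left out, the 8 without DDX17_KO replicate 2. Members lying higher without overlap, 66 in all, were 8 at a mean of at least 2 FPKM, 19 without the rows at 1 fragment in all libraries, and 0 with 10 fragments or more. Those lying lower, 8 in all, were 46 without both libraries numbered 2, 2 with 10 fragments or more, and 12 to 39 with 1 library left out. With fewer libraries the groups of any gene separate more easily. The share over all genes tested with libraries left out is not given, so nothing about the members is read from these higher counts. The SNORD median of 0.253 was -0.012 at a mean of at least 2 FPKM, 0.024 without the rows at 1 fragment and -0.058 with 10 fragments or more. The SNORA median of 0.016 ran from -0.115 to 0.067 with 1 library left out. For the particle protein genes the median of 0.033 was 0.103 with median-of-ratios scaling, -0.007 without both libraries numbered 2, -0.028 with a GC spline, with or without the replicate block, and -0.054 to 0.071 with 1 library left out. Apart from construction (fewer rows, fewer libraries), the cause was not tested.

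Of 40 single genes over 19 settings, 38 of 755 values changed sign, and none of these passed at an adjusted p under 0.05. The range with each library left out in turn was -0.126 to 0.442 for SNORD17, -0.329 to 0.545 for SNORD3A, -0.015 to 0.263 for SNORD14A, -0.852 to 0.055 for SNORD14E, -0.381 to 0.316 for SNORA73B, -0.596 to 2.072 for SNORA18, -0.41 to 0.231 for SNORA67, -0.214 to 0.348 for SNORA4, -0.389 to 0.043 for SNORA71A, -0.081 to 0.212 for SCARNA17, -0.072 to 0.777 for SCARNA13, -2.722 to 0.428 for SCARNA2, -0.056 to 0.134 for DKC1, -0.019 to 0.134 for GAR1 and -0.234 to 0.169 for NOP56. Without both libraries numbered 2 it was -0.23 for SNORD17, -0.209 for SNORD3A, -0.277 for SNORA73B, -0.348 for SNORA18, -0.007 for DKC1, -0.174 for NOP56 and -0.071 for HSPA8. The GC spline, with or without the replicate block, gave -0.111 for SNORD14A, 0.07 for SNORA67, -0.082 for SNORA4 and -0.028 for GAR1. Both scalings gave 0.035 for SNORA67, and SNORA73B was -0.001 at a pseudocount of 0.1 and -0.012 with voom. Depth limits the rest: 132 members averaged under 3 fragments.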
